A study of Bos taurus with 90 samples.

Results

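A set of 100 bovine genes with high read counts in both mural granulosa cells and oocytes, and low read counts in the cumulus cells that lie between them, was described across the 3 cell types and 3 sizes of antral follicle. The genes were chosen from the counts themselves. Counts were scaled to CPM, that is the count of a gene divided by the total count of its library and multiplied by 1000000, and averaged over 26 of the 30 follicles. Genes whose oocyte mean lay above a fraction of 0.25 of the mean in mural granulosa cells were kept, 15521 of the 27270 genes listed. The 100 of these with the highest log2 ratio of the lower of the 2 means to the cumulus mean, with 1 CPM added to each, were taken. Levels in the 3 cell types of these 26 follicles therefore chose the genes and are given as a description, without a test.

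An antral follicle is a fluid-filled sac in the ovary. Mural granulosa cells (MGCs) line its wall and make oestradiol, cumulus cells (CCs) surround the oocyte and reach it through fine projections with gap junctions, and the oocyte grows while it stores messenger RNA for the first divisions of the embryo. MGCs and CCs come from the same granulosa layer and part when the fluid-filled cavity forms.

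From each follicle of a *Bos taurus* ovary, collected at a slaughterhouse and given no treatment, 1 library was made from MGCs, 1 from a pool of CCs and 1 from the single oocyte. In the 26 follicles the rule used, 8 were small, 8 medium and 10 large. Over all 30 follicles the labelled diameters ran from 3.1 to 3.8 mm in small, from 6.2 to 7.1 mm in medium and from 9.6 to 11.6 mm in large follicles. Follicles are named here by the letter of their size class and their number in the labels. No label ties a follicle to a cow. The study describes batches of few ovaries that could give more than 1 follicle of a size class. Follicles of 1 animal may therefore be among the replicates, and the size comparisons treat follicles as independent. MGC libraries were made from extracted total RNA with a bulk protocol, whereas CCs and oocytes were lysed and amplified by SMART-seq2, so protocol and cell type cannot be told apart where MGCs are set against the other cells. CCs and oocytes shared the protocol, though the paper gives more PCR cycles for a single oocyte than for a CC pool. All values are relative to the library total, and fewer cells of a type cannot be told apart from less RNA per cell.

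In the 26 follicles an MGC library held 26739954 to 39266980 counts, a CC library 8760201 to 40180192 and an oocyte library 8442938 to 53173320. The 3 counts taken as the limit of a listed 0 correspond to 0.0747 to 0.342 CPM in the CC libraries, and this limit covers counting error only. The files list genes by Ensembl identifier and no table used here pairs these with symbols. The genes are therefore called by their rank under the rule, 4 of them are given by identifier, and the labelled cell types were not checked against their marker genes.

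The contrast that defined the genes was wide. The mean MGC level was 8.94 to 998 times the mean CC level, with a median ratio over the 100 genes of 36.5. The mean oocyte level was 8.29 to 2143 times the CC mean, with a median ratio of 72.3. Oocytes had the higher mean for 74 genes and MGCs for 26. The oocyte mean was more than 4 times the MGC mean for 17 genes and more than 10 times for 5. The rule's log2 ratio ran from 2.90 to 5.90 with a median of 3.39, and a log2 ratio above 2 was reached by 338 genes in all, so the list is the upper end of a longer gradient.

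The gene ranked 1 showed the pattern in full. Its MGC level was 3.03 CPM in the lowest library, 201 CPM at the median and 741 CPM in the highest. Its oocyte level ran from 26.1 through 108 to 150 CPM, and its CC level from 0 through 0.474 to 3.11 CPM. Every oocyte library lay above every CC library, while the lowest MGC library fell just inside the range of the CCs. At the other end of the list, the genes ranked 96 to 100 had rule ratios of 2.93, 2.92, 2.92, 2.91 and 2.90 on the log2 scale, and the next 5 genes, which were left out, had 2.89, 2.88, 2.87, 2.86 and 2.86.

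For 69 genes the lowest of the 26 oocyte libraries was above the highest CC library, where 14.2% of all genes that passed the filter on low counts were. The lowest MGC library was above the highest CC library for 13 genes (2.38% of all), and 10 genes met both (0.166%). The rule used these values. A count was present in every MGC library for 84 genes, in every oocyte library for 86 and in every CC library for 11. In CCs a gene was listed at 0 in a median of 6 and at most 21 libraries, and 24 genes were at 0 in at least 13. All 100 genes passed the filter on low counts, which asked for more than 1 CPM in at least 15 libraries of 1 cell type and which the rule made easy to meet.

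**Figure D1:**
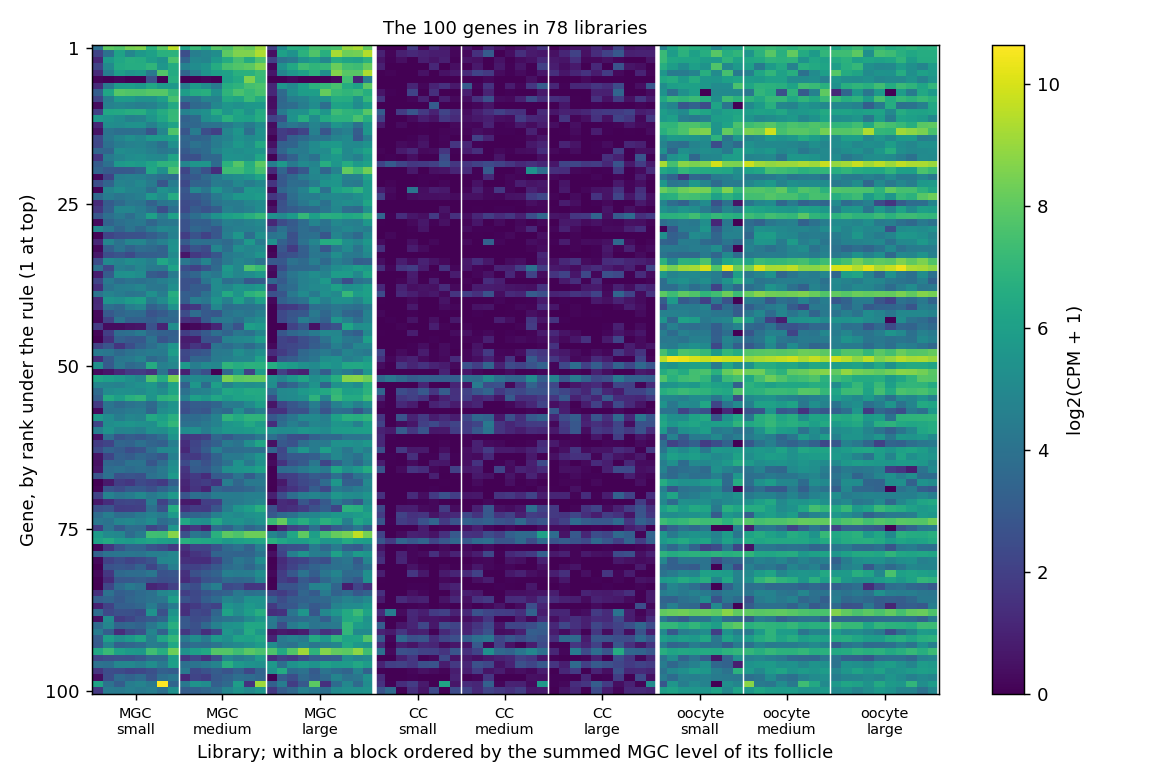
Heat map of log2(CPM + 1) for the 100 genes (rows, by rank) in the 78 libraries of the 26 follicles (columns, by cell type and follicle size, ordered within each block by the summed MGC level of the follicle). The CC block is dark throughout, and the MGC block darkens for most genes together towards the low end of each size class. The oocyte block is even in its summed level, though single genes vary from library to library.

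Within a follicle the pattern held for nearly all of the genes. In 23 of the 26 follicles at least 98 genes had a higher CPM in MGCs than in the CC pool of the same follicle. The exceptions were follicle L50505 with 65 genes, follicle S70501 with 81 and follicle M72403 with 93. The oocyte was above its own CC pool for 91 to 100 genes in every follicle. Both were above the CC pool for 65 to 100 genes, where 19.9% (S70501) to 54.8% (S50501) of all genes past the filter were. A share over all genes was not computed for either cell type alone. These counts also rest on the values the rule used.

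The summed CPM of the 100 genes gave the level of the set in each library. It was 947 CPM in the lowest MGC library, 3281 at the median and 8389 in the highest, an 8.86-fold range with a coefficient of variation of 59.1%. In oocytes it was 6196, 8237 and 10092 CPM, a 1.63-fold range with a coefficient of variation of 10.7%. In CCs it was 67.3, 123 and 364 CPM, a 5.41-fold range. No MGC library overlapped with a CC library, and the upper 6 MGC libraries lay within the oocyte range. Without the 5 most abundant genes of each cell type the range was 9.01-fold in MGCs and 1.86-fold in oocytes, so the wider spread in MGCs did not rest on a few abundant genes.

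Follicle size did not sort the MGC libraries. The summed level was 947, 2858 and 7218 CPM in the lowest, the median and the highest library of small follicles. It was 1075, 3757 and 8389 CPM in medium follicles and 1123, 3635 and 8020 CPM in large follicles. The 3 size classes overlapped over nearly their whole range, and each held 1 of the 3 lowest and 1 of the 3 highest libraries. The lowest were follicles S70501, M71002 and L50505, and the highest were follicles M70502, L71802 and S50502.

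Oocytes differed little by size. Their summed level was 6196, 7597 and 8413 CPM in small, 7824, 8445 and 10092 CPM in medium and 7509, 8442 and 9889 CPM in large follicles. The ranges overlapped, with the lowest value in a small follicle. Spearman's rho of the summed level with diameter over the 26 follicles was 0.46 in oocytes, 0.088 in MGCs and 0.174 in CCs.

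**Figure D2:**
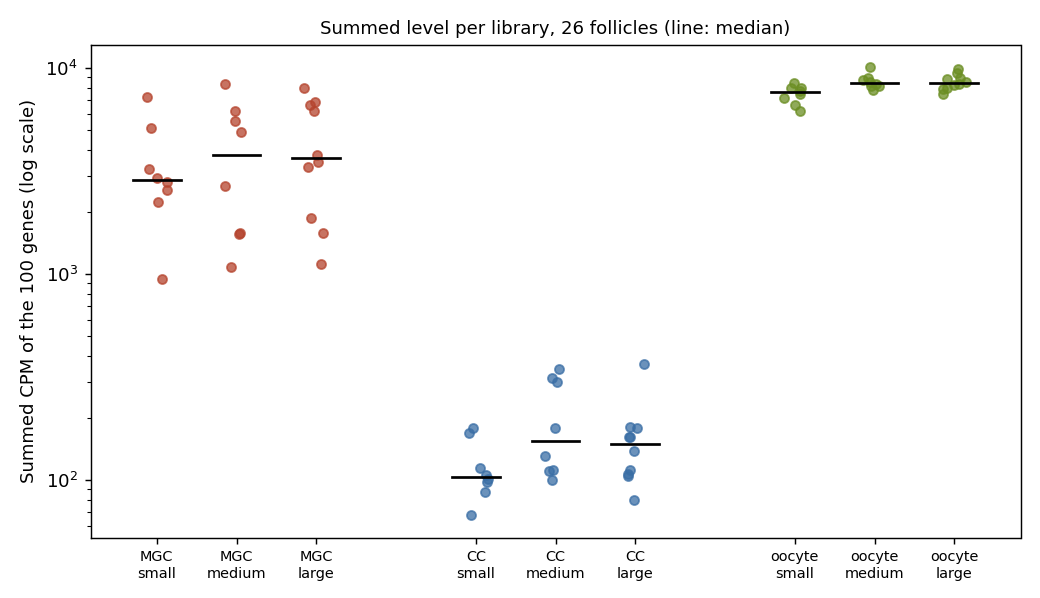
Summed CPM of the 100 genes in each library (points, log axis) by cell type and follicle size in the 26 follicles, with the median of each group as a line. MGC points spread from 947 to 8389 CPM in all size classes, while oocyte points stay between 6196 and 10092 CPM and CC points between 67.3 and 364 CPM.

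The genes rose and fell together among the MGC libraries, and the coefficients were lower in the other cell types. Over the 26 MGC libraries the median Spearman's rho of the 4950 gene pairs was 0.623, against 0.056 over all pairs of the 14838 genes tested in MGCs. In MGCs 92.8% of the pairs had a rho above 0 and 69.2% a rho above 0.5. The median rho was 0.129 in CCs, where all genes had 0.076, and 0.076 in oocytes, where all genes had 0.033. The rule chose the genes to be low in CCs, and 24 were at 0 in at least 13 CC libraries. Ties and counting error near 0 limit the rho that CCs could show. These correlations are descriptive. Each coefficient is over the same 26 libraries, and all genes of a library share its total. The MGC coefficient was kept when libraries were centred on their size class, with a median Pearson's r on log2(CPM + 1) of 0.642 without and 0.692 with centring. Centred on the first 3 digits of the follicle number, whose meaning the labels do not give, it was 0.68 over the 23 libraries that shared their digits with another.

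**Figure D3:**
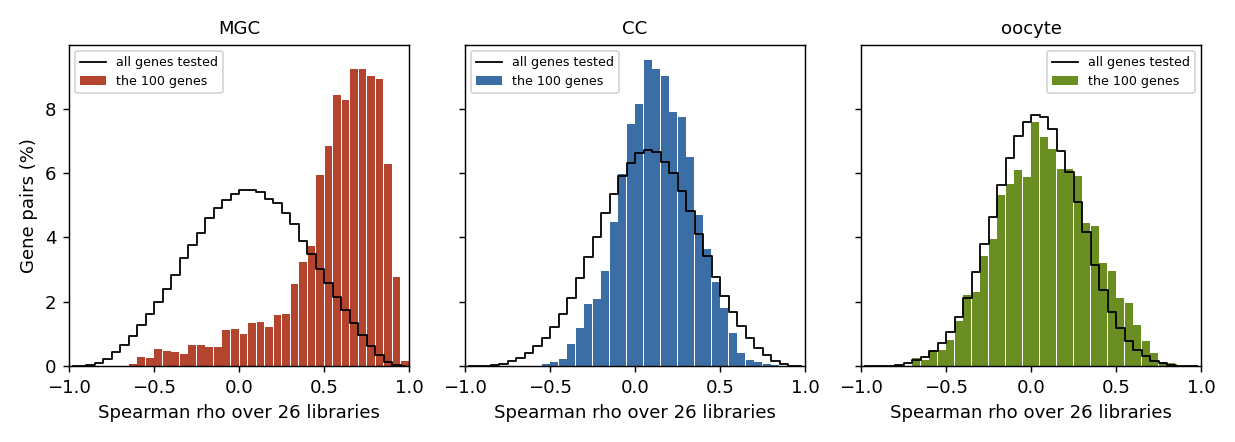
Distribution of Spearman's rho over the 26 libraries of each cell type for the 4950 pairs among the 100 genes (bars, % of pairs) and for pairs of all genes tested (black line). In MGCs the bars pile up around 0.7 with a median of 0.623, whereas in CCs and oocytes they lie close to the black line, with medians of 0.129 and 0.076. Many CC values are at or near 0, which limits the rho there.

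Each gene was also set against the sum of the other 99 over the same libraries. In MGCs the median rho was 0.795, with 90 genes above 0.5, 48 above 0.8 and 4 below 0. The gene ranked 33 followed the others most closely, with a rho of 0.952. The 4 genes with a rho below 0 were those ranked 77, 84, 74 and 99, with -0.43, -0.18, -0.16 and -0.01, of which the last 3 lie close to 0. In CCs the median rho was 0.325 and 10 genes were below 0, and in oocytes it was 0.296 with 22 genes below 0. The 90th percentile over libraries was also divided by the 10th, with 1 CPM added to each. This ratio had a median of 7.43 in MGCs, 2.62 in CCs and 2.85 in oocytes. In the median CC library the genes had a median level of 0.337 CPM. The added 1 CPM draws the ratio towards 1 there, so it does not rank the spread in CCs against the other cell types.

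Other properties of the libraries moved with the MGC level. Over the 26 MGC libraries the summed level had a Spearman's rho of -0.63 with the total count and of 0.657 with the number of genes detected. In oocytes these were -0.41 and 0.705, and in CCs 0.11 and 0.596. The part of depth and of gene detection in the covariation was not tested. The total counts of the MGC libraries ran from 26739954 to 39266980. The summed levels are in CPM, so these coefficients remained after division by the total. Libraries that share the first 3 digits of the follicle number lay close together in some cases and far apart in others. The 3 that begin with 620 had 2552 to 2934 CPM, the 2 with 724 had 1564 and 1579 CPM and the 2 with 628 had 6145 and 6803 CPM. The 4 that begin with 705 ran from 947 to 8389 CPM, the whole range of the MGC libraries, and the 4 with 505 from 1123 to 7218 CPM. The part of whatever these digits mark was not tested beyond the centring above.

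The level in MGCs of a follicle was not mirrored in its oocyte. The summed levels of MGCs and oocytes of the same follicle had a Spearman's rho of 0.171 over the 26 follicles, those of MGCs and CCs 0.267 and those of CCs and oocytes 0.709. For single genes the median rho between MGCs and oocytes was 0.03 and ran from -0.41 to 0.521, with 56% of the genes above 0, against 49.1% and a median of -0.01 over all genes. Between CCs and oocytes the median rho was 0.152 for the 100 genes and 0.149 over all genes. Both libraries of that pair were amplified by the same protocol, and the gene detection of each moved with its summed level. Their part in the coefficient was not tested.

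The study named 10 of the 26 follicles healthy, 3 small, 3 medium and 4 large, on criteria that include the expression of chosen genes in these MGC libraries, so the division is not independent of the counts. In the 10 named healthy the summed MGC level had a lowest value of 1075, a median of 2214 and a highest value of 3782 CPM. In the other 16 it was 947, 5316 and 8389 CPM. The 10 highest MGC libraries all belonged to the other 16, while their lowest libraries lay as low as those of the healthy follicles. Oocytes did not divide in this way, with medians of 8005 CPM in the 10 and 8289 CPM in the 16.

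The comparison of follicle sizes within a cell type asks which genes changed as follicles grew, and it was not part of the rule. A gene was called when its fold change was above 2 and its p in the quasi-likelihood test of edgeR, adjusted over all genes by the Benjamini-Hochberg method, was under 0.05. In MGCs from small to medium follicles none of the 100 genes was called in either direction, where 0.0202% of all genes were called higher and 0.263% lower. At an unadjusted p under 0.05, 5 of the genes were higher (1.36% of all) and 1 lower (4.21% of all), and DESeq2 called 0 (0.229% of all genes higher and 1.29% lower). The genes had a median log2 fold change of 0.29 and all genes one of 0.00. From medium to large follicles edgeR again called 0 of the 100, as it called 0 of all genes (0%). At an unadjusted p under 0.05 there 5 were higher (2.09% of all) and none lower (2.35%), and DESeq2 called 2 higher (0.263%) and 0 lower (0.182%). Their median log2 change was -0.02.

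From small to large follicles 4 of the 100 genes were called in MGCs. The 3 that rose stand beside 1.01% of all genes called higher, and the 1 that fell beside 2.12% called lower. DESeq2 called 5 higher (1.89%) and 1 lower (3.2%). Since the genes moved together among MGC libraries, their directions are not separate observations.

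ENSBTAG00000015381, ranked 74, rose in MGCs. Its level was 12.4 CPM in the lowest, 21.2 at the median and 35.3 in the highest library of small follicles. In medium follicles it was 33.3, 42.4 and 85.1 CPM and in large follicles 22.9, 79.0 and 281 CPM. Small and large follicles overlapped only at the lower end of the large ones. The log2 fold change from small to large was 2.21 with a standard error of 0.41 (adjusted p = 0.00251, edgeR), and the gene was called under 6 of 6 other settings, with adjusted p from 2.18e-06 to 0.0175. In oocytes it was 154 CPM at the median of small and 223 CPM at the median of large follicles, a log2 difference of 0.47 (adjusted p = 0.0219, edgeR) that stayed under the fold change limit.

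ENSBTAG00000001410, ranked 97, rose in MGCs as well. It was at 2.14, 4.55 and 8.64 CPM in small, 3.80, 6.74 and 18.6 CPM in medium and 7.06, 13.9 and 90.2 CPM in large follicles, again as the lowest, the median and the highest library. Only the low end of the large follicles reached into the range of the small ones. The log2 fold change was 2.47 with a standard error of 0.50 (adjusted p = 0.00458, edgeR), and 6 of 6 other settings called it, with adjusted p from 1.05e-05 to 0.0344. The third riser, ranked 27, went from a median of 20.9 to 85.3 CPM with a log2 fold change of 1.61 (adjusted p = 0.0353, edgeR), and 5 of 6 other settings called it.

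ENSBTAG00000020067, ranked 34, fell in MGCs and rose in oocytes. In MGCs it was 4.69, 32.2 and 78.7 CPM in small and 6.64, 11.6 and 23.4 CPM in large follicles. The whole range of the large follicles lay inside that of the small ones, so the fall is one of the median and the upper end. Its log2 change there was -1.36 with a standard error of 0.32 (adjusted p = 0.0137, edgeR). In oocytes it was 28.1, 103 and 199 CPM in small and 129, 244 and 381 CPM in large follicles, and the log2 change was 1.36 with a standard error of 0.26 (adjusted p = 0.00148, edgeR). In CCs it stayed at or under 2.05 CPM. With the first 3 digits of the follicle number as a covariate neither call was kept, with a log2 change of -0.66 in MGCs (adjusted p = 0.656, edgeR) and an adjusted p of 0.146 in oocytes. Of the 4 genes called in MGCs, those ranked 74, 97 and 34 were among the 6 whose MGC level followed the other 99 least.

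In oocytes 7 of the 100 genes were called from small to large follicles. The 5 that rose stand beside 2.15% of all genes called higher and the 2 that fell beside 0.99% called lower. DESeq2 called 4 higher (2.34%) and 2 lower (1.13%). None of the 7 calls was kept by edgeR with the first 3 digits of the follicle number as a covariate, where 0% of all genes were called higher and 0.0269% lower, and none over the 10 follicles named healthy. At an unadjusted p under 0.05 the fit with the covariate had 10 of the genes higher (5.54%) and 1 lower (1.2%). The genes had a median log2 fold change of 0.18 and all genes one of 0.05. From small to medium follicles 2 genes rose, those ranked 76 and 31, beside 0.619% of all genes called higher and 0.195% lower, and both were also called from small to large. DESeq2 called 3 higher (0.889%) and 1 lower (0.39%) in that first step. With the covariate edgeR called 0 there (0.00673% of all genes higher and 0.114% lower), with 10 higher (7.29%) and 3 lower (2.19%) at the unadjusted p. From medium to large edgeR called 0 of the 100 and 0% of all genes, 0 of the 100 passed an unadjusted p of 0.05 with the fold change limit (0.969% of all genes higher and 1.45% lower), and DESeq2 called 0.

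ENSBTAG00000017677, ranked 6, fell in oocytes. Its level there was 46.4, 69.7 and 94.7 CPM in small and 24.6, 46.3 and 67.4 CPM in medium follicles. In large follicles the lowest value was 25.6 and the median 36.8 CPM, and every one of the 10 was below the lowest of the small follicles. The log2 fold change was -1.02 with a standard error of 0.20 (adjusted p = 0.00197, edgeR), and 4 of 6 other settings called it. In MGCs the same gene was listed at 0 in 11 of 26 libraries, 4 of them small, 3 medium and 4 large follicles, and reached 377 CPM in 1 medium follicle, with a median of 0.109 CPM. Its mean MGC level, which the rule used, thus rested on a minority of libraries. In CCs it was at 0 in 19 libraries and did not exceed 0.391 CPM.

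**Figure D4:**
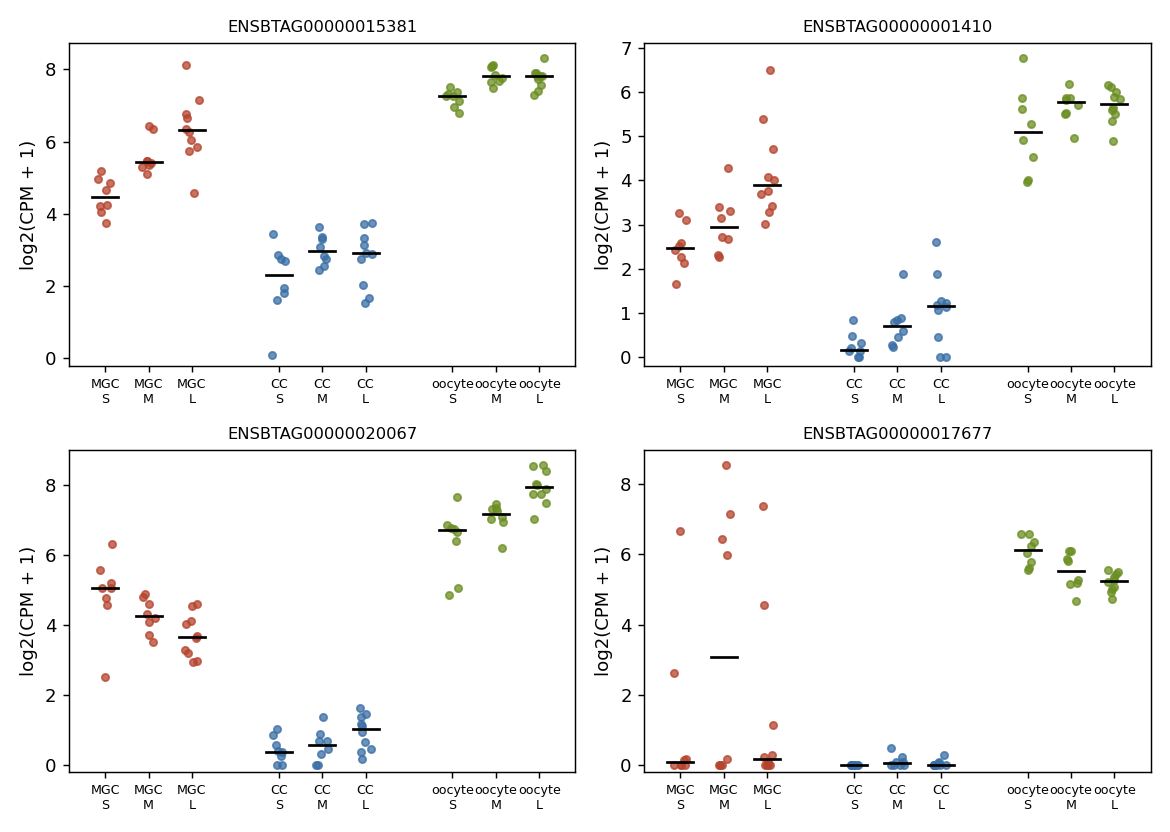
Level of the 4 genes given by identifier, as log2(CPM + 1), in each library (points) by cell type and follicle size (S small, M medium, L large), with group medians as lines. ENSBTAG00000015381 and ENSBTAG00000001410 step up in MGCs, ENSBTAG00000020067 steps down in MGCs and up in oocytes, and ENSBTAG00000017677 is either near 0 or high in MGCs while it falls in oocytes.

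In CCs 3 of the 100 genes were called higher in large than in small follicles, beside 1.23% of all genes called higher and 2.07% lower, and none was called lower. DESeq2 called 6 higher (4.65%) and 1 lower (4.38%). With the first 3 digits of the follicle number as a covariate edgeR kept none of the 3 (0.0399% of all genes higher and 0% lower), with 4 higher (7.19%) and 1 lower (4%) at the unadjusted p, and it kept none over the 10 follicles named healthy. For the gene ranked 50 the CC median went from 0.940 to 4.88 CPM (adjusted p = 0.0382, edgeR). For the gene ranked 57 all 8 small libraries were at 0 and 5 of 10 large libraries too, with a highest value of 6.58 CPM. From small to medium edgeR called 0 of the 100 and 0% of all genes, with 17 higher (6.35% of all) and 1 lower (2.75%) at an unadjusted p under 0.05, while DESeq2 called 2 higher (0.233%) and 0 lower (0.02%). From medium to large edgeR called 0 with 3 higher (1.92%) and 4 lower (2.56%) at the unadjusted p, and DESeq2 called 0 (0.0466% of all genes higher and 0.0732% lower). From small to medium the median log2 fold change was 0.73 in CCs, against 0.07 over all genes. The CC libraries of small follicles also detected fewer genes, a median of 15188 against 16371 in medium follicles, and the part of detection in this difference was not tested.

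Whether the change from small to large follicles differed between oocytes and MGCs was tested by the interaction of size and cell type in 1 fit, a comparison added after the data were seen. It called 5 of the 100 genes. The change was higher in oocytes for 1 gene (4.22% of all genes) and lower for 4 (2.44%). For ENSBTAG00000020067 the difference of the 2 log2 changes was 2.73 with a standard error of 0.44 (adjusted p = 0.000131, edgeR), and with the follicle as a block 2.78 (adjusted p = 0.000795, edgeR). For ENSBTAG00000015381 it was -1.70 (adjusted p = 0.0073, edgeR) and for ENSBTAG00000001410 -2.12 (adjusted p = 0.0133, edgeR). With the follicle as a block only ENSBTAG00000020067 of the 100 was called, beside 1.67% of all genes called higher and 0.79% lower. The adjusted p of the other 4 then lay between 0.0631 and 0.248.

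The MGC comparison turned on which follicles entered. Over the 10 follicles the study named healthy, 15 of the 100 genes were lower in medium than in small follicles (1.08% of all genes) and 0 higher (0.573%), and 17 were higher in large than in medium follicles (3.3%) and 0 lower (4.66%). For the genes as a set the median log2 fold change was -1.20 and then 0.87, where it had been 0.29 and -0.02 over the 26 follicles. The summed MGC level of these follicles was 2552, 2782 and 2934 CPM in the 3 small, 1075, 1564 and 1579 CPM in the 3 medium and 1583 to 3782 CPM in the 4 large ones. The medium follicles lay below all of the small and all of the large ones. All 3 small follicles have numbers that begin with 620, the medium ones begin with 710 or 724, and the large ones share their first 3 digits with neither, so size and whatever these digits mark cannot be told apart here. In the other 16 follicles the medium libraries were not low, with a lowest value of 2658 and a median of 5536 CPM.

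The counts of calls in the 10 follicles rested on single libraries. When each of the 10 was left out in turn, a choice made after the data were seen, the number called from small to medium ran from 0 to 42. It was 0 or 1 without follicle S62003, S62004, S62005, M71002 or M72404, 8 without M72403, 29 without L71801 and 42 without L70504. Calls over all genes moved too. Of the 14631 to 14652 genes tested, 0 to 11 were called in the fits with 0 or 1. There were 197 without M72403, 588 without L71801 and 1121 without L70504. From medium to large the number of the 100 called ran from 2 to 37, while that of all genes ran from 375 without M71002 to 2357 without L70504. It was 2 without follicle M71002, 3 without M72404, 7 without L72101, 8 without L71801, 9 without S62005, 10 without S62003, 11 without S62004 and 37 without L70504. The median log2 fold change stayed between -1.57 and -1.02 in the first comparison and between 0.61 and 1.15 in the second. From small to large 24 of the genes were called, 7 higher (3.79% of all genes) and 17 lower (4.95%), with 7 to 33 called when 1 follicle was left out (7 without S62003 and 10 without S62005). The fit without S62003 called 436 of all genes, that without S62005 called 516, and that without L71801, which gave the 33, called 1241. In CCs and oocytes of the same 10 follicles edgeR called 0 of the 100 in any size comparison. Of all genes it called 0.00671% higher from small to medium and 0.0805% higher from small to large in CCs, 0.00681% lower in the same comparisons of oocytes, and 0% elsewhere. At the unadjusted p with the fold change limit, 12 were higher (6.4% of all genes) and 4 lower (1.93%) in CCs from small to medium, 2 higher (2.47%) and 9 lower (5.2%) from medium to large, and 7 higher (4.66%) and 2 lower (1.62%) from small to large. In oocytes these were 5 higher (1.76%) and 1 lower (0.463%), 3 higher (0.933%) and 4 lower (1.84%), and 7 higher (3.03%) and 1 lower (1.74%).

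**Figure D5:**
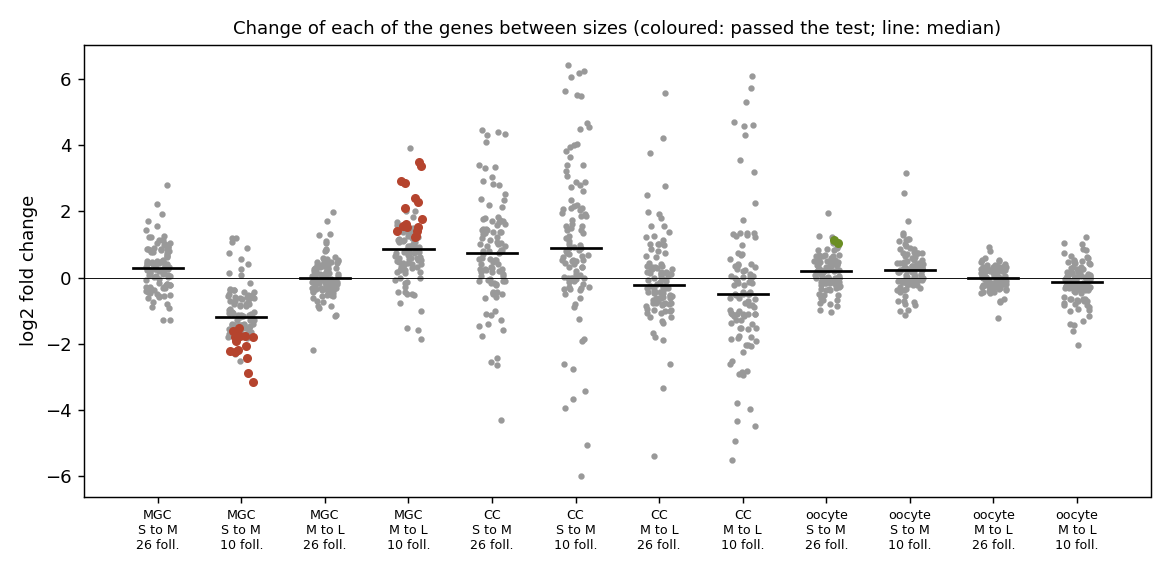
Log2 fold change of each of the 100 genes from small to medium (S to M) and from medium to large follicles (M to L) in each cell type, over the 26 follicles and over the 10 named healthy (10 foll.). Coloured points passed the test, grey points did not, and lines are medians; in MGCs the median moves from 0.29 to -1.20 and from -0.02 to 0.87 between the 2 selections.

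The rule left out 4 follicles, and 3 of them have libraries of all 3 cell types that were analysed here, S70702, M71804 and M71001. The paper states that follicles were excluded for their mapping rates and their share of mitochondrial reads. It names M71804, whose oocyte had an abnormally high mitochondrial share. The 3 follicles serve as samples that the rule did not use. They are not an ordinary check, since some of their libraries stand apart. The CC pool of S70702 detected 23838 genes, above the highest of the 26 CC libraries at 18588, and the oocytes of M71804 and M71001 detected 6770 and 9524 genes, below the lowest of the 26 oocytes at 10588. The summed level of the 100 genes in these 3 follicles, in the order given, was 6911, 4917 and 3464 CPM in MGCs, 826, 157 and 525 CPM in CCs and 10834, 7434 and 10293 CPM in oocytes. The CC pools of S70702 and M71001 were above the highest of the 26, 364 CPM. MGCs and oocytes remained above CCs in each of the 3 follicles.

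Gene by gene, 96 of the 100 were higher in MGCs than in the CC pool of the same follicle in all 3, where 31.1% of all genes were. For 86 the 3 MGC libraries lay above all 3 CC pools (21.4% of all genes). Oocytes were above their CC pool in all 3 follicles for 50 genes (15.2% of all) and without overlap for 43 (12.7%). The oocyte of M71804 detected only 61 of the genes and that of M71001 81.

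The libraries of these 3 follicles varied widely, with a biological coefficient of variation of 1.24 in the fit, against 0.573 in MGCs, 0.756 in CCs and 0.821 in oocytes of the 26 follicles. Between MGCs and CCs edgeR called 0 of the 100, as it called 0% of all genes higher, with a log2 fold change between 1.16 and 7.42 for all 100 genes, against a median of -0.23 over all genes. With this spread and 3 follicles the fit could detect little, so the 0 does not show that levels were alike. At an unadjusted p under 0.05, 39 of the genes were higher (2.6% of all genes) and DESeq2 called 29 higher (1.5%). Between oocytes and CCs edgeR called 23 higher (4.03% of all genes) and 0 lower (14.4%). The log2 fold change was above 0 for 97 genes, with a median of 3.42 against -0.97 over all genes. DESeq2 called 49 higher (8.7%). With the follicle as a block edgeR called 11 higher (1.71%) and still 0 between MGCs and CCs. The oocyte count was 15 without follicle S70702, 7 without M71804 and 1 without M71001, so it depended on each of the 3. Over all genes 287, 51 and 25 were then called higher. Without S70702, 3 other genes of the 100 were called lower, beside 3617 of the 14937 genes tested. The median log2 fold change of the 100 genes between oocytes and CCs stayed between 2.84 and 4.09 in these fits.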

How the data were processed

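RNA-seq counts of 90 libraries (30 follicles, 3 cell types) were analysed, and 78 libraries of 26 follicles entered the rule and the size comparisons. The deposited values are whole-number counts per gene that the authors did not normalize. The methods of the study name alignment of uniquely mapped reads to ARS-UCD1.2 with STAR and counting with featureCounts, while the submitters' processing notes name HISAT2 2.2.1, and which made the counts is not settled here. Multi-mapped reads would be lost from near-identical genes under the first. The genes, lists and tests were chosen with earlier results of these data known.

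CPM used all counts of a library. The 15056 genes that exceeded 1 CPM in 15 or more libraries of 1 cell type were tested. Genes with no count in the libraries of a fit dropped out of that fit. Each cell type had 1 edgeR 4.0.16 fit over the 3 sizes (R 4.3.3, TMM, glmQLFit and glmQLFTest), with Benjamini-Hochberg adjustment over all genes of the fit. Alternatives were DESeq2 1.42.0, median-of-ratios scaling, filterByExpr, no filter, the first 3 digits of the follicle number as a covariate, the 10 follicles named healthy, and, where cell types were compared, the follicle as a block. The scripts were tested on simulated counts. Descriptive values were computed in Python 3.11.15 (pandas 2.3.3, scipy 1.17.1).

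Genes given by identifier were limited to 2 that rose and 2 that fell, and they were chosen after their values were seen. The planned gene lists and marker checks need gene symbols and were not run. Samples with the same follicle number come from the same follicle. Their deviations from the group means over the genes tested had a median correlation of 0.059 between MGCs and CCs, 0.008 between MGCs and oocytes and 0.095 between CCs and oocytes. The CC library of follicle S70701 was left out of every comparison.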

Additional observations from a re-analysis of the deposited data

Results flagged for a closer look

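In 4 of 24 groups of libraries checked for an outlying sample, 1 library stood apart from the rest. The limit used flags about 1 in 20 groups only where values are normally distributed and groups are independent. Here the values were CPM without a log, groups shared libraries, and many groups were of genes chosen after their values were seen. The 4 therefore cannot be set against chance. The CC pool of the large follicle L62802 had a summed level of 364 CPM, with the next large follicle at 180 CPM. The MGC library of the large follicle L70504 was highest for ENSBTAG00000015381 with 281 CPM (next 142 CPM) and for ENSBTAG00000001410 with 90.2 CPM (next 41.0 CPM). In medium follicles the MGC library of follicle M71002 had 18.6 CPM of ENSBTAG00000001410 (next 9.52 CPM).

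The change from small to large follicles differed between oocytes and MGCs for 5 of the 100 genes by the interaction term in edgeR, 1 higher in oocytes (4.22% of all genes) and 4 lower (2.44%), a share near that of all genes. The difference, oocyte minus MGC on the log2 scale, was -1.53 for the gene ranked 27, -1.70 for that ranked 74, -2.12 for that ranked 97, -3.16 for that ranked 68 and 2.73 for that ranked 34. With the follicle as a block only the gene ranked 34 was called, and the adjusted p of the other 4 lay between 0.0631 and 0.248 (edgeR).

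The CC library of follicle S70701, which entered no comparison, had a count for 4 of the 100 genes and for 1066 genes in all, in a total count of 1666212.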

How the results depend on the processing

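Counts of called genes are given for each setting that moved them by more than 1.5 times. Under DESeq2 they were 2 for MGCs from medium to large, 2 and 7 for CCs from small to medium and from small to large, 4 for oocytes from small to medium, and 29 and 49 for MGCs and oocytes against CCs in the 3 follicles left out of the rule. With filterByExpr the count for CCs from small to large was 1, where 61 of the 100 genes were tested. With the follicle number's first 3 digits as a covariate it was 0 for CCs from small to large and 0 for oocytes from small to medium and from small to large, and the median log2 change in MGCs went from 0.29 to 0.88 from small to medium, from -0.02 to -0.98 from medium to large and from 0.42 to -0.23 from small to large. Over the 10 healthy follicles the counts were 15, 17 and 24 in MGCs and 0 in CCs and oocytes, and the medians in MGCs turned to -1.20, 0.87 and -0.34. With 1 of these 10 left out, the MGC counts ran from 0 to 42, from 2 to 37 and from 7 to 33. Over all genes the calls then ran from 0 to 1121, from 375 to 2357 and from 436 to 1719. With the replicate block, that is the pairing of libraries by follicle, the count was 11 for oocytes against CCs and 1 for the interaction of size and cell type, and it changed no other count. Without 1 of the 3 follicles the count for oocytes against CCs ran from 1 to 15 and that for MGCs was 0. Over all genes 25 to 287 were then called higher in oocytes. Each such fit leaves 2 libraries a cell type. Median-of-ratios scaling moved the median of all genes between MGCs and CCs in the 3 follicles from -0.23 to -0.02. Of the 100 genes, 79 were kept with median CPM, 62 with 0.1 CPM added in place of 1, 97 with equal weight for each size and 93 with TMM-scaled CPM. Centring on follicle size moved the median Pearson's r in MGCs from 0.642 to 0.692. The causes were not tested, other than that fewer follicles enter some fits. In the median CC library the 100 genes had a median level of 0.337 CPM, which limits what changes could be detected there.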
